A study of Caenorhabditis elegans with 2 samples.

Results

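The srh and sri genes encode predicted chemoreceptors of Caenorhabditis elegans, and the Ensembl WBcel235 annotation names 281 protein-coding genes with these prefixes among 19985 protein-coding genes, 220 of them srh and 61 sri. They were chosen by name alone, without use of any measured value. Of the 281, 201 lie on chromosome V, 58 on chromosome II, 11 on chromosome I, 8 on chromosome IV, 2 on X and 1 on chromosome III. The data are deposited region lists from chromatin immunoprecipitation and sequencing (ChIP-seq) of DMD-4, a DM-domain transcription factor, in 2 biological replicates of a single group. The worms were whole L2 larvae of both sexes, of strain OP418, which carries unc-119(tm4063) on chromosome III and the transgene wgIs418 that makes DMD-4 with a GFP-FLAG tag at its C terminus. Their age in hours is labelled unknown, and there was no second genotype, stage or treatment, so the genes were set beside the 4793 other protein-coding genes of chromosome V. In whole larvae, binding in a few cells and weak binding in many cannot be told apart.

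Both families belong to the Str superfamily of 7-transmembrane G-protein-coupled receptors, which has expanded in nematodes into tandem arrays on a few chromosome arms. Where their expression has been studied, single members are made in a few chemosensory neurons of the head and tail, whose cilia reach the outside of the worm. An E-box, the core bound by basic helix-loop-helix factors, has been described upstream of srh and sri genes made in the ADL sensory neuron. DM-domain proteins are best known as regulators of sexual differentiation, including that of neurons.

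The lists are of 4 kinds. The pooled candidate list, made from the reads of both replicates, held 11281 regions, of which 1924 were on chromosome V. The candidate list of replicate 1 held 17531 regions and that of replicate 2 held 18240. The list thresholded on the irreproducible discovery rate (IDR), a measure of how well ranks repeat between replicates, held 212 peaks. Candidate lists include weak regions by construction, so a candidate region is not a binding site by itself. Each region carries the authors' signal, an enrichment value without a stated scale, and a summit. A gene's window was its body plus the stretch between 1000 bp before and 200 bp after each annotated start site, and a region counted for the gene when its summit fell there. The files hold no read counts, so the read depth behind a signal is unknown.

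Most srh and sri genes had no candidate region. In the pooled list 40 of 281 (14.2%, 95% Wilson interval 10.6 to 18.8%, for the counting of genes only) had at least 1, against 23.5% of the other chromosome V genes. In the list of replicate 1 the share was 67 of 281 (23.8%) against 34.8%. In that of replicate 2 it was 78 of 281 (27.8%) against 36.4%; over all 19985 protein-coding genes the 3 lists gave 28.6%, 40.7% and 42.4%. The members thus lay below the comparison genes in each replicate, and the gap in each was wider than the distance between the replicates. Members found in both replicate lists numbered 33 (11.7%) against 20.2% of other chromosome V genes and 25.6% of all genes. In at least 1 of the 3 candidate lists were 114 members (40.6%) against 51.7% and 58.3%, which left 167 members with no region in any. With 1 group and no second condition no test between groups of samples exists, and the counts are given as a description.

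The families differed over all chromosomes, with srh above sri in each list, but not in that way on chromosome V. In the pooled list 36 of 220 srh genes (16.4%) and 4 of 61 sri genes (6.56%) had one. The families were closer in the list of replicate 1, with 54 srh genes (24.5%) and 13 sri genes (21.3%), and apart again in replicate 2, with 66 (30%) and 12 (19.7%). On chromosome V alone 28 of 180 srh genes (15.6%) and 3 of 21 sri genes (14.3%) had a pooled region. There sri stood above srh in both replicates, with 33.3% against 24.4% in replicate 1 and 33.3% against 29.4% in replicate 2. On chromosome II, which holds 27 srh and 31 sri genes, 6 of the 58 had a pooled region (10.3%), beside 23.5% of 3391 other protein-coding genes there.

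Other chemoreceptor genes of chromosome V were, as a group, as seldom found. Of 689 named members of further receptor families, 91 had a pooled region (13.2%), and the shares were 24.2% in replicate 1 and 27.1% in replicate 2. Among the larger ones on this chromosome, str had 12 of 157 (7.64%), srw 11 of 95 (11.6%), srx 13 of 79 (16.5%) and srbc 5 of 68 (7.35%). The 4104 chromosome V genes outside these families stood at 25.2%. Not every family was low: srg and srsx each had 8 of 33 (24.2%), sru 4 of 18 (22.2%) and srr 3 of 9 (33.3%).

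**Figure D1:**
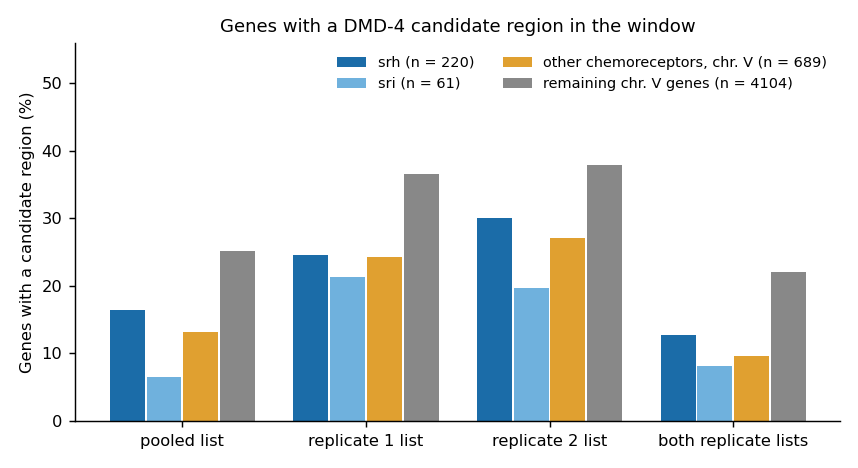
Percentage of genes with a DMD-4 candidate region in the window (vertical axis) in the pooled list, in the list of each replicate and in both replicate lists, for srh genes, sri genes, the other named chemoreceptor genes of chromosome V and the remaining genes of chromosome V. The remaining genes have the tallest bar in every list, at 25.2% in the pooled list beside 16.4% for srh and 6.56% for sri; there are no error bars, since each bar is a single count of genes.

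The counts were also set against the length of the windows. Per 10 kb of merged windows the pooled list held 0.625 summits in srh and sri windows and 0.886 in those of other chromosome V genes. The rates were 1.14 and 1.46 in replicate 1, and 1.38 and 1.58 in replicate 2. The median gene was 1624 bp long among members and 1773 bp among the others. One member weighs on the rate: srh-2, a gene of 6011 bp, held 5 of the 47 pooled regions, and without it the rate of the members was 0.564.

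The position along chromosome V separated the srh and sri genes more than their family did. The chromosome was divided into 3 segments of equal length, called left, middle and right. In the left segment 14 of 59 members had a pooled region (23.7%), against 20.7% of other genes. In the middle segment 11 of 28 did (39.3%), against 30.4%. In the right segment, where most members lie, only 6 of 114 did (5.26%), against 18.2%. Outside the right segment 25 of 87 members (28.7%) had a region and 25.9% of 3264 others, so that in the pooled list the shortfall of the chromosome V members lay in the right segment. There the 6 were srh-95, srh-298, srh-300, srh-172, and the neighbours srh-218 and srh-219, which share 1 region. That shared region overlapped no region of either replicate.

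Each replicate had the same order of segments. In replicate 1 the share of members was 33.9% on the left, 46.4% in the middle and 15.8% on the right, beside 33.3%, 43.1% and 26.6% of the other genes. In replicate 2 it was 32.2%, 53.6% and 22.8%, beside 33.5%, 44.1% and 30.2%. The other named chemoreceptor genes of chromosome V stood at 10.5%, 21.7% and 9.77% in the pooled list, below the srh and sri genes on the left and in the middle and above them on the right. All 3 sri genes of chromosome V with a pooled region, sri-6, sri-18 and sri-20, lay in the middle segment, which holds 3 sri genes, while 0 of 5 on the left and 0 of 13 on the right had one. Counting summits per 10 kb gave 1.39 on the left, or 1.12 without srh-2, then 1.61 in the middle and 0.195 on the right for members, beside 0.787, 1.18 and 0.665 for other genes. The split into segments was chosen with these data in view.

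**Figure D2:**
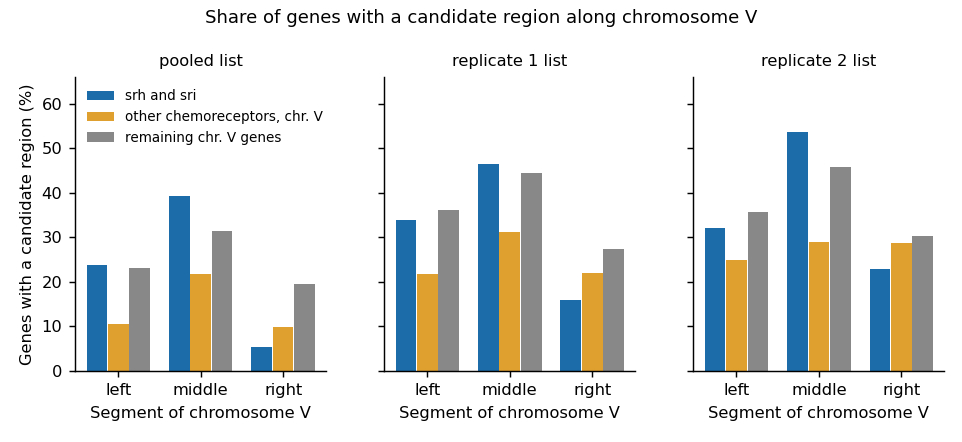
Percentage of genes with a candidate region (vertical axis) by segment of chromosome V, for the pooled list and for each replicate, in srh and sri genes, other named chemoreceptor genes and the remaining genes of the chromosome. In the pooled list srh and sri genes fall from 39.3% in the middle segment to 5.26% in the right one, and the remaining genes from 31.4% to 19.6%.

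Sequence composition and repetition moved with these counts. Windows of members with a pooled region had a median GC content of 32.9% (quartiles 32.0 to 35.5%), and those without one 35.9% (34.0 to 37.9%). For other chromosome V genes the medians were 34.6% and 35.6%. Of 50-base words in a window, the median share found only once in the genome was 99.8% for members, but 41 members (14.6%) had under 90% of such words, and 0 of these 41 had a pooled region. Some of the 41 did have a region in a replicate list, such as srh-171 (30.6% unique words) in replicate 1 and srh-291 (57.9%) in replicate 2. On chromosome V, 22 members fell under 90% with 0 found in the pooled list, and 620 other genes did with 77 found there (12.4%). Reads from repeated sequence cannot be placed with certainty, and the part of repetition and GC content in these counts was not tested.

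The counts of the right segment were also split by these properties, and members stood below other genes in each stratum shown. Among genes with at least 90% unique words, 6 of 96 members had a region there (6.25%) against 18.8% of other genes. Among windows at or below the median GC content of chromosome V genes, it was 3 of 47 members (6.38%) against 25.1%. Among windows above it, the count was 3 of 67 (4.48%) against 12.9%. On the left the same split gave 12 of 39 members (30.8%) against 25.5% at low GC content, and 2 of 20 (10%) against 17.0% at high. Over all of chromosome V, members in the lowest quartile of GC content stood at 31.7%, against 30.3% of other genes. The higher quartiles, in rising order, gave 9.8%, 11.8% and 2.56%, against 27%, 21.7% and 15.1%. Other chemoreceptor genes fell from 23.4% in the lowest quartile to 1.15% in the highest. The part of GC content and repetition in the right segment was not tested.

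Members were also divided by whether they stand in tandem. On chromosome V, 112 members stand next to another srh or sri gene with no other protein-coding gene between them. Of these, 13 had a pooled region (11.6%), while 18 of the 89 that stand alone did (20.2%). The segments were not held apart in this split, and the part of position along the chromosome was not tested. Of 69 adjacent pairs, 4 had a pooled region at both members, and these pairs held 8 of the 13. They were srh-298 and srh-300, srh-78 and srh-80, srh-231 and srh-275, and srh-218 and srh-219. The last 2 pairs each share 1 region. Neither shared region overlapped a region of either replicate. The longest unbroken run holds 9 members from srh-292 to srh-286 (V:17802769-17844206), of which srh-298 and srh-300 had a pooled region, 2 were in the list of replicate 1 and 5 in that of replicate 2. Another run of 4, from srh-182 to srh-178 (V:18471985-18480331), had none in any list. In the run of 4 from srh-172 to srh-183 (V:19959044-19978320), all 4 were in replicate 1, 2 in replicate 2 and 1 in the pooled list.

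The pooled regions in srh and sri windows had signals near the middle of the list, a little lower than those of other genes. There were 47, with signals from 13.2 to 62.5 and a median of 16, beside a median of 16.5 for the 1356 regions in windows of other chromosome V genes and a lowest signal of 13 in the list. Their median rank put them at the 42.7th percentile of the list, beside 48.2 for the others. Above the 90th percentile were 4 regions (8.51%), beside 10.1%. Of the 281 members, 33 had 1 region, 6 had 2, and srh-2 had 5. There were 3 regions in the windows of 2 members each, and 10 regions were also in the window of a protein-coding gene outside both families. For 34 of the 40 members at least 1 region lay nearer to their own start site than to that of any other protein-coding gene.

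A larger share of the members' regions than of those of other genes lay upstream of the gene. Of the 47 summits, 22 lay upstream of the gene (46.8%), 15 in introns (31.9%), 8 in coding exons (17.0%) and 2 in exons of untranslated sequence (4.26%). For other chromosome V genes the shares were 32.5%, 44.3%, 11.8% and 11.4%. The median distance to the nearest annotated start site of the gene was 512 bp for members and 630 bp for the others. Other chemoreceptor genes were closer still, with a median of 460 bp and 56.7% upstream. Per 10 kb, members held fewer summits than other chromosome V genes both in promoter windows (0.866 against 1.16) and in gene bodies (0.49 against 0.748). The part of gene length in these shares was not tested.

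**Figure D3:**
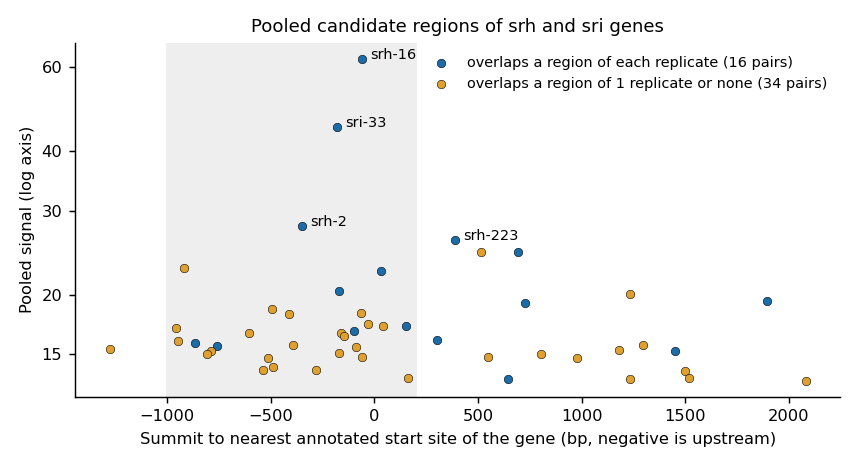
Pooled signal (vertical log axis) against the distance of the summit from the nearest annotated start site of the gene (horizontal axis, bp, negative upstream), 1 point for each pair of a region and an srh or sri gene; the grey band is the promoter window. Most points lie between signals of 13.2 and 25, while srh-16 at 62.5 and sri-33 at 44.9 stand above the rest, both within 200 bp upstream of a start site.

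A single member carried an IDR peak. It was srh-16 (WBGene00005241, V:12291861-12294196, plus strand), a receptor gene of the middle segment. Of other chromosome V genes 0.522% had one, and of all protein-coding genes 0.996%. The region V:12291627-12291976 had its summit 59 bp upstream of the annotated start. Its signal was 62.5 in the pooled list, where it ranked 116, with 35.1 in replicate 1 at rank 122 and 20.5 in replicate 2 at rank 404. A second and weaker region in a coding exon of srh-16, at V:12293582-12293931, had signals of 19.4 pooled, 8.04 in replicate 1 and 7.06 in replicate 2. The sequence within 100 bp of the first summit (WBcel235, V:12291702-12291902, plus strand) is shown because it is the only member sequence under an IDR peak, with the word CTTGCGC in capitals, centred 10 bp from the summit.
srh-16: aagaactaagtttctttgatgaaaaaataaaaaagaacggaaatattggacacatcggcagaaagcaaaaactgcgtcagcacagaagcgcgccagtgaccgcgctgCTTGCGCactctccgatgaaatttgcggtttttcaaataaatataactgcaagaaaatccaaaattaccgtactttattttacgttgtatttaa

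That word had been noted earlier among the IDR peaks of these data, of which srh-16 is one, so its presence here is no separate evidence. Within 100 bp of the summit, on either strand, CTTGCGC occurred in 9.91% of the 212 IDR peaks and in 0.878% of all 11281 pooled regions. Of the 47 regions of srh and sri genes 3 held it, namely those of srh-16, of srh-2 at V:729951-730300 and of srh-49, with signals of 62.5, 15.4 and 13.3. In the 300 bp around annotated starts it was present in 1 of 281 members and in 1.23% of all protein-coding genes.

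The second strongest member was sri-33 (WBGene00005545, II:3154558-3156849, minus strand), which was far stronger in replicate 2 than in replicate 1. Its region II:3156857-3157206 had its summit 183 bp upstream of the start and lay in no other gene's window. The signal was 44.9 in the pooled list at rank 228, just past the 212 IDR peaks. In replicate 1 it was 11.9 at rank 4065 and in replicate 2 it was 32.6 at rank 114. Its summit sequence (WBcel235, II:3156932-3157132, minus strand) is given for comparison with srh-16, and none of the words searched was present in it.
sri-33: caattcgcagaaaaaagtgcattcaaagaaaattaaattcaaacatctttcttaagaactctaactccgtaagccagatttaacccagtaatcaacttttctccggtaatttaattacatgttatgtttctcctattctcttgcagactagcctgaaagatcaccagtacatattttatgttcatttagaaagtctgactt

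Next, among members whose strongest pooled region overlapped a region of each replicate, came srh-2 (WBGene00005228, V:728301-734311), srh-223 (WBGene00005433, IV:3981901-3983609) and srh-95 (WBGene00005315, V:16246879-16248542). At srh-2 the summit of V:727775-728124 lay 351 bp upstream of the start but nearer to the start of icl-1, which encodes the bifunctional enzyme of the glyoxylate cycle. That region had signals of 27.8 pooled, 21.0 in replicate 1 and 11.1 in replicate 2. At srh-223 the region IV:3982113-3982462 lay in an intron, with 26.1 pooled, 7.96 in replicate 1 and 15.3 in replicate 2. The region of srh-95, V:16247399-16247748, was also intronic, with 24.6, 16.2 and 8.99. At all 3 genes the replicates ranked the region far apart, at 482 and 3945 for srh-2, 12745 and 1134 for srh-223, and 1251 and 7549 for srh-95.

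An imbalance opposite to that of sri-33 was seen at sri-5 (WBGene00005517, I:11182795-11186206), which had the highest signal of any member in replicate 1. The region I:11182385-11182728 reached 43.2 there at rank 89, overlapped a region with a signal of 9.68 in replicate 2, and overlapped no region of the pooled list. It was named after its values were seen.

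The remaining members with a region in the pooled and in both replicate lists spread from the 87.5th percentile of pooled signal down to the 2.78th. These lists had 17 srh genes and 3 sri genes in common. Besides those named, srh-130 (24.6) held its strongest region in an intron, srh-298 (22.4) in a coding exon, 31 bp after the start, and srh-211 (20.4) in an intron near a start site. Pooled signals ran from 19.2 for srh-70 down through srh-30, srh-300, srh-28, srh-184, srh-275, srh-36 and srh-172 to 13.3 for srh-49 and 13.2 for srh-80. Of these, the strongest pooled regions of srh-30, srh-300 and srh-80 overlapped a region of replicate 1 only. That of srh-49 overlapped a region of replicate 2 only. The pooled region of srh-275 overlapped no region of either replicate, and its replicate regions lay elsewhere in the window. The sri genes were sri-33, sri-6 with 15.8 and sri-18 with 15.6. The region of sri-6 also lay in the window of T09E8.4 and nearer to the start of that gene. The region of sri-18 also lay in the window of ric-4, the gene for the synaptic SNAP-25 protein. Outside this set, srh-18 (18.3), which was not in the list of replicate 2, shared its region with the collagen gene col-161. Signals of srh-184 were nearly equal between replicates, at 8.35 and 8.91, as were those of srh-36 at 9.19 and 9.38. By contrast srh-130 had 17.9 in replicate 1 and no overlapping region in replicate 2, and srh-78 had 16.3 in replicate 2 and none in replicate 1.

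Fewer than 50% of the members listed in one replicate were also listed in the other. Of 112 members listed in either replicate, 34 were in replicate 1 only, 45 in replicate 2 only and 33 in both, which is 49.3% of those in replicate 1 and 42.3% of those in replicate 2. For other chromosome V genes the shares were 58.1% and 55.5%, and for the other named chemoreceptor genes among them 39.5% and 35.3%, below those of the members. Overlapping regions of both replicates were present at 23 of the 33 members and at 595 of the 968 other genes found in both. Of the 47 pooled regions, 16 overlapped a region of each replicate (34.0%), 12 only of replicate 1, 17 only of replicate 2 and 2 of neither; for other chromosome V genes 40.5% overlapped both, and for the other chemoreceptor genes 35.6%. Over the 33 members in both lists the highest signal had a Pearson correlation of 0.236 and a Spearman correlation of 0.290, and over the 968 other genes 0.564 and 0.313, where neighbouring genes can share a region.

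**Figure D4:**
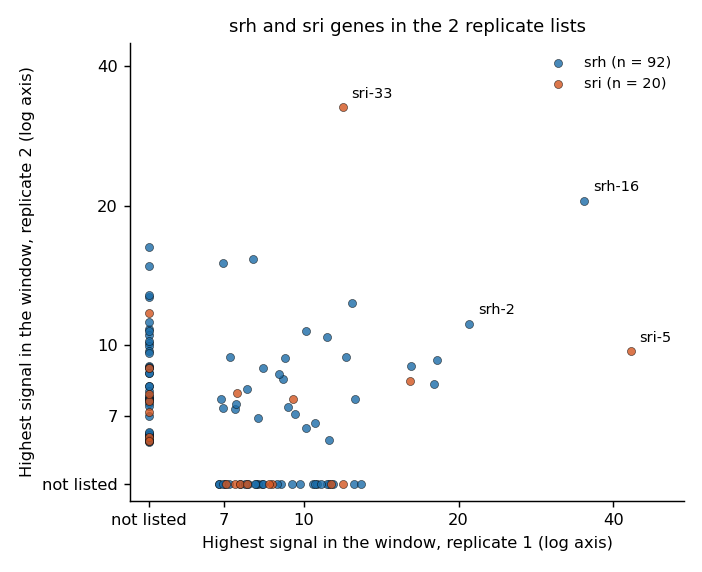
Highest signal in the window of each srh or sri gene in replicate 1 (horizontal log axis) and replicate 2 (vertical log axis), with genes absent from a list placed at "not listed"; 92 srh and 20 sri genes are in at least 1 list. Most genes sit on an axis, sri-5 is high in replicate 1 at 43.2 and sri-33 in replicate 2 at 32.6, and srh-16 is the only gene over 20 in both.

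Of 5 members listed for their known neurons, 0 had a pooled region, beside 14.2% of all members, a share at which none of 5 says nothing particular about them. They were srh-220, srh-234 and sri-51, which are made in the ADL neurons, srh-142 of the ADF neurons and srh-11 of the ASJ neurons. In the replicate lists srh-234 was present in both with signals of 9.30 and 7.34, srh-220 in replicate 2 with 7.62, sri-51 in replicate 2 with 11.7 and srh-11 in replicate 1 with 8.04. srh-142 was in none. The replicate lists as a whole had median signals of 9.25 and 8.37.

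Promoters of srh and sri genes were rich in the E-box CACCTG, but members that held it did not have a candidate region more often in the pooled list. In the 250 bp before and the 50 bp after the first annotated start, on either strand, CACCTG occurred in 121 of 281 members (43.1%), in 40% of srh and 54.1% of sri genes. It occurred in 8.48% of all 19985 protein-coding promoters and in 12.8% of the 689 other chemoreceptor genes of chromosome V. The palindromic form CACGTG did not stand out, at 5.69% of members and 5.81% of all promoters. Of the 121 members with CACCTG, 13 had a pooled region (10.7%), 22 a region in replicate 1 (18.2%) and 34 one in replicate 2 (28.1%). Of the 160 without it, 27 (16.9%), 45 (28.1%) and 44 (27.5%) did. The promoters of 3 ADL genes show the word in its place, in capitals (WBcel235, all on the minus strand; srh-220 IV:3977966-3978265, srh-234 V:7651808-7652107, sri-51 II:3199049-3199348).
srh-220: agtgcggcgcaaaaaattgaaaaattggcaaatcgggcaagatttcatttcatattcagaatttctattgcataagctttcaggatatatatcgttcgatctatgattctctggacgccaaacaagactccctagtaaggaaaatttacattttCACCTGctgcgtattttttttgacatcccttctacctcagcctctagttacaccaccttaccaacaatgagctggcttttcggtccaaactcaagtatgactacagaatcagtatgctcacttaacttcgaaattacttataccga
srh-234: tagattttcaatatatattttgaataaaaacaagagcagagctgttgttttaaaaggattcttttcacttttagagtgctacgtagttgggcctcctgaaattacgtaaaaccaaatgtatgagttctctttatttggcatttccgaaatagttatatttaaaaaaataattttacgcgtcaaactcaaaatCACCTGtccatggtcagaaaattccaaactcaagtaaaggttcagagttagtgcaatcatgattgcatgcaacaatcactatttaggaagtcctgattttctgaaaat
sri-51: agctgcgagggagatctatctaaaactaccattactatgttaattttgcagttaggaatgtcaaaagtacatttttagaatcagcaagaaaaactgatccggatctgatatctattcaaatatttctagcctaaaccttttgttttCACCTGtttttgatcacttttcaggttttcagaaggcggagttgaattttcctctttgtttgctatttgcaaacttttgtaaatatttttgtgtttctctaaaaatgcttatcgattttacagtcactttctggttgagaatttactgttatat

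At the summits of member regions CACCTG was found in 4 of 47 (8.51%), beside 4.50% of regions of other chromosome V genes and 4.16% of all pooled regions. The 4 were the region between srh-231 and srh-275, that of srh-172, that of sri-18 and that of srh-270, with pooled signals of 16.6, 15.2, 15.6 and 14.8. The closest was srh-172 (WBGene00005388, V:19959044-19960916), where the word was centred 2.5 bp from a summit in a coding exon. The windows of srh-172 (V:19960395-19960595, plus strand) and srh-275 (V:7352742-7352942, plus strand) are printed to show this, with CACCTG or its reverse complement CAGGTG, and TGTTGC, in capitals. The pooled region of srh-275 overlapped no region of either replicate.
srh-172: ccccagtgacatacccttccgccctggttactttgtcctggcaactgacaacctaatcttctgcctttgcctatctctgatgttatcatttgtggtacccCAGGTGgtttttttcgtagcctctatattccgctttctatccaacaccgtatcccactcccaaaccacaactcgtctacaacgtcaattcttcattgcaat
srh-275: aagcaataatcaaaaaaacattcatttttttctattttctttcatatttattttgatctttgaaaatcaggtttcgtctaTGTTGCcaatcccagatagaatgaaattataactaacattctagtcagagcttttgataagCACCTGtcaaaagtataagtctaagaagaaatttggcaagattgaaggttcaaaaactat

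Words known for DM-domain proteins were about as frequent at the summits of member regions as at those of other genes. The core ACAATGT or ACATTGT was present in 1 of 47, a region upstream of srh-28 at V:6776592-6776941, beside 3.47% of regions of other chromosome V genes. The word TGTTGC, from sites bound by the relative MAB-3, was in 3 of 47 (6.38%), beside 7.89%. These were the region shared by srh-231 and srh-275, one of srh-2 and the one shared by srh-218 and srh-219. Neither shared region overlapped a region of either replicate. The region of srh-28 and that of srh-2 each overlapped a region of replicate 2 only. In promoters of members the 2 cores occurred in 4.98% and 13.5%, beside 5.67% and 13.5% of all protein-coding promoters. The first of them was in the promoters of 5 of the 40 members with a pooled region (12.5%) and of 9 of the 241 without one (3.73%). A match is a description of letters and not of a site.

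Listed genes of chemosensory signalling, and listed regulators of receptor or sensory neuron genes, had candidate regions more often than the srh and sri genes did. Of 18 chemosensory signalling and receptor trafficking genes, 7 had a pooled region (38.9%), beside 28.6% of all protein-coding genes. In replicate 1 were 12 (66.7%), beside 40.7% of all genes, and in replicate 2 were 13 (72.2%), beside 42.4%. In both replicates were 9, where the share of all genes was 25.6%. Those with a pooled region were ocr-2, a TRPV channel subunit (21.9), grk-2, a receptor kinase (16.8), odr-4, needed to bring receptors to the cilium (16.4), egl-4, a cGMP-dependent kinase (16.1), and the G-protein alpha subunits odr-3 (16), gpa-5 (15.1) and gpa-13 (13.6). Of 10 regulators of receptor or sensory neuron genes, 7 had one: ceh-36 (44.4) and ttx-1 (21.8), homeobox genes of AWC and AFD neurons, mef-2 (30.2), a MADS-box factor known to act on srh-234, daf-19 (24.8), the RFX factor of cilia, lin-11 (22.4), a LIM homeobox gene, hlh-4 (19), the helix-loop-helix factor of ADL, and che-1 (13.6), the zinc-finger factor of ASE. The 7 regulators are 70% of their list, beside the same 28.6% of all protein-coding genes, and 9 regulators were in both replicates. None of the 28 genes had an IDR peak, beside 0.996% of all protein-coding genes, a share at which none of 28 says nothing particular. Several of them are much longer than a receptor gene, the part of length in these counts was not tested, and both lists were chosen with earlier results known.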

How the data were processed

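Region lists in narrowPeak format were used as deposited. Per the deposited descriptions of the files, the authors derived a candidate list from the ce11 alignment of each replicate, a pooled one from both alignments, and the IDR list from those 3. The sources name no aligner, caller, version or IDR threshold. The signal of a region is the authors' deposited value and was used only within a list. The other deposited column used, the summit offset in bp, gave the summit position. The ce10 lists were not used, because coordinates were not converted between builds.

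Coordinates are 1-based in ce11, the sequence of WBcel235, and genes came from Ensembl release 115. Sequences were read from the RefSeq copy of WBcel235. A gene's window joined its body with 1000 bp upstream to 200 bp downstream of every annotated start. Shares, summits per 10 kb of merged windows, medians and ranks were computed in scipy 1.17.1, pandas 2.3.3 and numpy 2.4.6 under Python 3.11.15; matplotlib 3.10.9 drew the plots. Assignment of summits to windows was tested on simulated data. Percentages of unique words count 50-base words, both strands together. No test was made, since 1 group of 2 replicates offers no comparison of conditions.

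The genes, lists and words were chosen with earlier results of these data known. Genes were named by rule: members with an IDR peak, up to 16 srh and 8 sri genes with the highest pooled signal among those also in both replicate lists, and members with known neurons. Others were named after their values were seen. Depth per sample is unknown, so intervals cover the counting of genes only. Alternatives were other windows, region overlap, the stronger regions, each replicate alone, nearest start sites and other comparison genes.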

Additional observations from a re-analysis of the deposited data

How the results depend on the processing

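The difference between the share of members and of other chromosome V genes with a pooled region, -9.26 percentage points, stayed negative under 13 of 15 alternatives. It turned to 1.03 points against the other chemoreceptor genes of chromosome V, and to 2.79 points without the right segment of the chromosome, an alternative chosen after seeing the data. The ratio of summits per 10 kb, 0.705 for all members, likewise turned to 1.10 and 1.47 in these 2 alternatives and stayed below 1 in the other 12. The share of members with a region was 9.96% with the promoter window only, 6.76% with the gene body only and again 6.76% with the 5640 strongest regions, and it ranged from 23.8% to 27.8% with the list of 1 replicate alone, which is longer than the pooled list. The number of members with an IDR peak was 0 in gene bodies, 1 or 2 with as many strongest regions of 1 replicate (sri-33 in replicate 2, srh-16 and sri-5 in replicate 1), and 2, srh-16 and sri-33, when the list was made 2 times as long. The median signal of 16 became 7.82 to 8.71 in single replicates, whose signals are on another scale. The share of members in both replicates, 11.7%, was 5.34% for promoters, 6.76% for gene bodies, 16.7% with 2000 bp upstream, and 4.98% when regions had to overlap by 50% of the shorter one. The cause of these changes was not tested, other than that narrower windows and shorter lists hold fewer summits. No paired analysis was possible because there is 1 group. Depth is unknown, so whether weak regions at these genes would hold with more reads cannot be said.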
